A study of Caenorhabditis elegans with 2 samples.

Results

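The CUT homeobox genes of Caenorhabditis elegans are 8 of the 19973 protein-coding genes of the 6 nuclear chromosomes. They were taken by name as ceh-44, ceh-48, ceh-38, ceh-49, ceh-21, ceh-39, ceh-41 and dve-1. Each locus was the annotated gene with 3000 bp on both sides, and everything that chromatin immunoprecipitation of CEH-44 listed there was collected. CEH-44 is itself the product of one member, so the question is what this protein's peak lists hold at its own gene and at its relatives.

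The CUT proteins CEH-44 and its ONECUT relatives bind DNA through CUT domains and a homeodomain. CEH-44 belongs to the CUX branch, and CEH-48, CEH-38, CEH-49, CEH-21, CEH-39 and CEH-41 belong to the ONECUT branch. DVE-1 is a homeodomain protein related to vertebrate SATB proteins, counted here with the family, and is known for its part in the mitochondrial unfolded protein response. In C. elegans several CUT genes are known to act together on genes that all neurons express.

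The worms were of strain RW12327, in which CRISPR had inserted TY1, EGFP and 3xFLAG sequences into the endogenous ceh-44 gene (allele st12327). Both libraries were made from entire L4 larvae, 49 hours old, which had been synchronised by bleaching and by starving the hatched L1 larvae. Fragments of 200 to 800 bp, made by sonication, were recovered with anti-GFP antibody. The 2 biological replicates formed 1 group, and there was no second genotype, stage or treatment, so no difference between conditions could be tested. Because whole animals were used, a site in a small number of cells and a weakly occupied site in many cells cannot be told apart.

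The authors called peaks on both replicates together and within each replicate. The larger list of the series held 1027 peaks and the conservative list 1003. The replicates' own lists held 387 peaks in replicate 1 and 525 in replicate 2. Behind each list stood a ranked file of candidates, strong and weak, with 115557 entries for the larger list, 114616 for the conservative one, 63930 for replicate 1 and 68342 for replicate 2. A candidate is a position proposed by the peak caller, and a peak is a candidate kept in a thresholded list. Each entry carries the authors' signal, whose scale is not stated, so signals were compared only within a file. Across files, the share of a file's candidates with a lower signal (the percentile) was used instead. Thresholded peaks all had a −log10 irreproducible discovery rate (IDR) of at least 2, which is an IDR of at most 0.01. The IDR estimates the share of peaks, among those ranked at least as high, that would not repeat between the inputs compared.

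Of the 8 loci, 2 held a peak of the larger list. The ceh-44 locus held 2 peaks and the ceh-39 locus held 1. Over all protein-coding loci treated the same way, 9.82% held at least 1 such peak, and 8 loci are too few for a share of 25.0% to be read as more than a count. The loci differ in length, and the ceh-44 window is the longest of the members at 21808 bp. Among the 356 protein-coding loci with a window at least that long, a comparison chosen after the data were seen, 18.3% held at least 1 peak and 2.53% held at least 2. The same 2 members held the same 3 peaks in the conservative list, against 9.47% of all protein-coding loci with any. In replicate 1's own list no member had a peak, against 4.27% of protein-coding loci. In replicate 2's own list ceh-44 had 1 peak, against 5.33%.

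The sequence is shown around the summit of each larger-list peak in the loci and of the ceh-44 candidate in intron 2, which is below the threshold. Each sequence is the plus strand of RefSeq WBcel235 (the ce11 assembly), 5′ to 3′, with the summit at the centre. In the ceh-44 sequences, capitals mark ATCGAT, a known core word of CUT domain proteins. The ceh-44 candidates 9561 bp and 13009 bp from the start, also at or above the 90th percentile, are not shown. They hold no ATCGAT within 50 bp of the summit. In the ceh-39 sequence, capitals mark bases of a tRNA gene.
rbc-2 and ndua-8 start, 1788 bp upstream of ceh-44 (chrIII:2528775-2528875, plus strand): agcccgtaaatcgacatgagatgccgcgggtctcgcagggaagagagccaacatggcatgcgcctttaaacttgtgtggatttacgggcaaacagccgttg
ceh-44 intron 2 (chrIII:2532678-2532778, plus strand): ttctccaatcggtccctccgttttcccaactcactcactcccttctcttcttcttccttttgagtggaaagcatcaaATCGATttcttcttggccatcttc
ceh-44 intron 3 (chrIII:2535374-2535474, plus strand): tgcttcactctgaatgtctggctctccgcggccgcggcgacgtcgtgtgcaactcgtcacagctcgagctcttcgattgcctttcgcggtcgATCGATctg
tRNA-Glu gene upstream of ceh-39 (chrX:1858788-1858888, plus strand): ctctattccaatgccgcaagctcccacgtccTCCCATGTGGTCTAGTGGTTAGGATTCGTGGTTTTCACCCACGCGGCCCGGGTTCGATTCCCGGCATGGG

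At ceh-44, whose product was precipitated, the annotated locus produces different proteins. One transcript (Y54F10AM.4a.1) encodes the CUT homeobox protein, and the other 2 belong to cone-1, the worm form of the Golgi protein CASP. They share a start and 7 exons. The remaining 4 exons of the ceh-44 transcript begin 9063 bp from the start and lie within a single intron of the cone-1 transcripts. The gene starts at 2530613 on chromosome III and reads along the plus strand.

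The first ceh-44 peak, at chrIII:2528697-2528952, had its summit 1788 bp upstream of the ceh-44 start. Its signal was 69.0, rank 651 of the 1027 peaks in the larger list, with a −log10 IDR of 2.22. In replicate 1 the overlapping candidate had a signal of 23.4 (percentile 95.3), and in replicate 2 it had 46.8 (percentile 99.3). Both replicates placed it among their stronger candidates, yet neither replicate's own list kept it. The summit lay 136 bp upstream of the start of rbc-2, which encodes a rabconnectin and reads the other way. It was also 146 bp upstream of Y54F10AM.15, an annotated coding gene of 30 bp that lies within rbc-2 on the same strand. It fell in the 373 bp between rbc-2 and ndua-8, a gene for a subunit of mitochondrial complex I whose start faces the other side of the same gap. ndua-8 reads in the same direction as ceh-44 and ends 110 bp before ceh-44 begins. This peak thus stands near the starts of these 3 genes, with the whole of ndua-8 between it and ceh-44. Whether the site acts on any of these genes or on ceh-44 was not tested. No ATCGAT lay within 50 bp of the summit.

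The second ceh-44 peak, at chrIII:2535296-2535551, lay inside the gene, 4811 bp from the start, in intron 3 of all 3 transcripts. Its signal was 63.2, rank 782 of 1027, with a −log10 IDR of 2.12. Replicate 1 had an overlapping candidate with a signal of 25.5 (percentile 97.0), whose summit was 100 bp away. Replicate 2 had 46.0 (percentile 99.2) and kept the site in its own list at rank 441 of 525. It is therefore the one peak in the 8 loci that a replicate's own list also holds. The intron is 2449 bp long, and one ATCGAT began 42 bp after the summit. Both ceh-44 peaks were weaker than the median peak of the larger list, 76.0.

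Below the threshold, 3 more candidates in ceh-44 reached the 90th percentile of the ranked file. The candidate in intron 2, 2115 bp from the start, had a signal of 36.6 (percentile 93.3). It reached percentile 97.3 in replicate 1, where it was the strongest candidate of the locus, and 93.6 in replicate 2. The 2 replicates' summits were 137 bp before and 47 bp after the series summit, and one ATCGAT began 27 bp after the latter. Its −log10 IDR was 0.26 in the ranked file of the larger list and 1.78 in that of the conservative list, although the signal was the same in both.

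The other two lay further along the locus. One, 9561 bp from the start, had a signal of 50.7 (percentile 98.5) and fell in exon 9 of the ceh-44 transcript, one of the exons that cone-1 lacks. The other, 13009 bp from the start, had 38.9 (percentile 94.97), 948 bp beyond the last coding base of that transcript and inside an intron of cone-1. In replicate 2 they reached percentiles 98.2 and 97.6, and in replicate 1 they reached 42.7 and 42.8. Replicate 1 thus holds the 3 sites toward the start of the locus among its top candidates and not the 2 toward its end.

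Near its own start, ceh-44 showed only weak candidates. The strongest between 1000 bp upstream and 200 bp downstream had a signal of 15.7, percentile 38.1 of the ranked file. In replicate 2 the strongest there was at percentile 31.4, and replicate 1 had none in that stretch. Among all protein-coding loci, 92.9% had a strongest candidate below that of ceh-44 (69.0), a value set by the peak at rbc-2 and ndua-8. That rank was not matched for length. The ceh-44 window of 21808 bp held 29 candidates, against medians of 8027 bp and 11 candidates over all protein-coding loci.

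ceh-39 encodes an X-linked signal element, one of the products through which worms count X chromosomes in sex determination. Its peak, at chrX:1858710-1858965, had the highest signal of any candidate in the 8 loci, 74.3, rank 540 of 1027, with a −log10 IDR of 2.46. Replicate 1 gave 32.9 (percentile 98.8) and replicate 2 gave 35.1 (percentile 98.3), with the summit at the same base in all 3 files. Neither replicate's own list held it. The summit lay 2666 bp upstream of ceh-39 and inside T26C11.t1, a tRNA-Glu gene at chrX:1858819-1858890. The nearest protein-coding start was that of T26C11.8, 1884 bp away. Of the 30-base words within 50 bp of the summit, 63.9% occurred more than once in the genome, against 0% at each of the other 10 sites at or above the 90th percentile. In the larger list as a whole, 195 of 1027 summits (19.0%) lay inside tRNA genes. Without peaks of that kind, ceh-44 would be the one member with a peak.

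Nearer to the gene, a candidate 216 bp upstream of the ceh-39 start had a signal of 38.5 (percentile 94.7). Replicate 2 ranked it similarly at percentile 94.4, whereas in replicate 1 it was at 49.8. The annotated start nearest to its summit was that of the noncoding gene T26C11.10, 85 bp away.

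The 90th percentile asks less of a site than the authors' threshold does. The cutoff was a signal of 33.5 in the ranked file of the larger list, and 5 of the 8 members (62.5%) had at least 1 candidate above it, against 61.0% of all protein-coding loci. In the conservative list's ranked file the same count was 5, against 60.7%. With each replicate's own percentile it was 4 members in replicate 1, against 43.1%, and 5 in replicate 2, against 45.3%. The count over the members is near the background in the series files. In the 77409 bp that the loci cover together, 96 candidates were ranked and 11 reached the percentile, which is 11.5% (exact 95% interval 5.86 to 19.6, counting error only). The interval takes candidates as independent, and it holds the share that the percentile itself sets for the whole file. Candidates were also about as dense as elsewhere, with 12.4 per 10 kb against 11.5 over the genome. Just inside the cutoff was a dve-1 candidate with a signal of 34.6, and just outside it a ceh-39 candidate with 33.3.

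**Figure D1:**
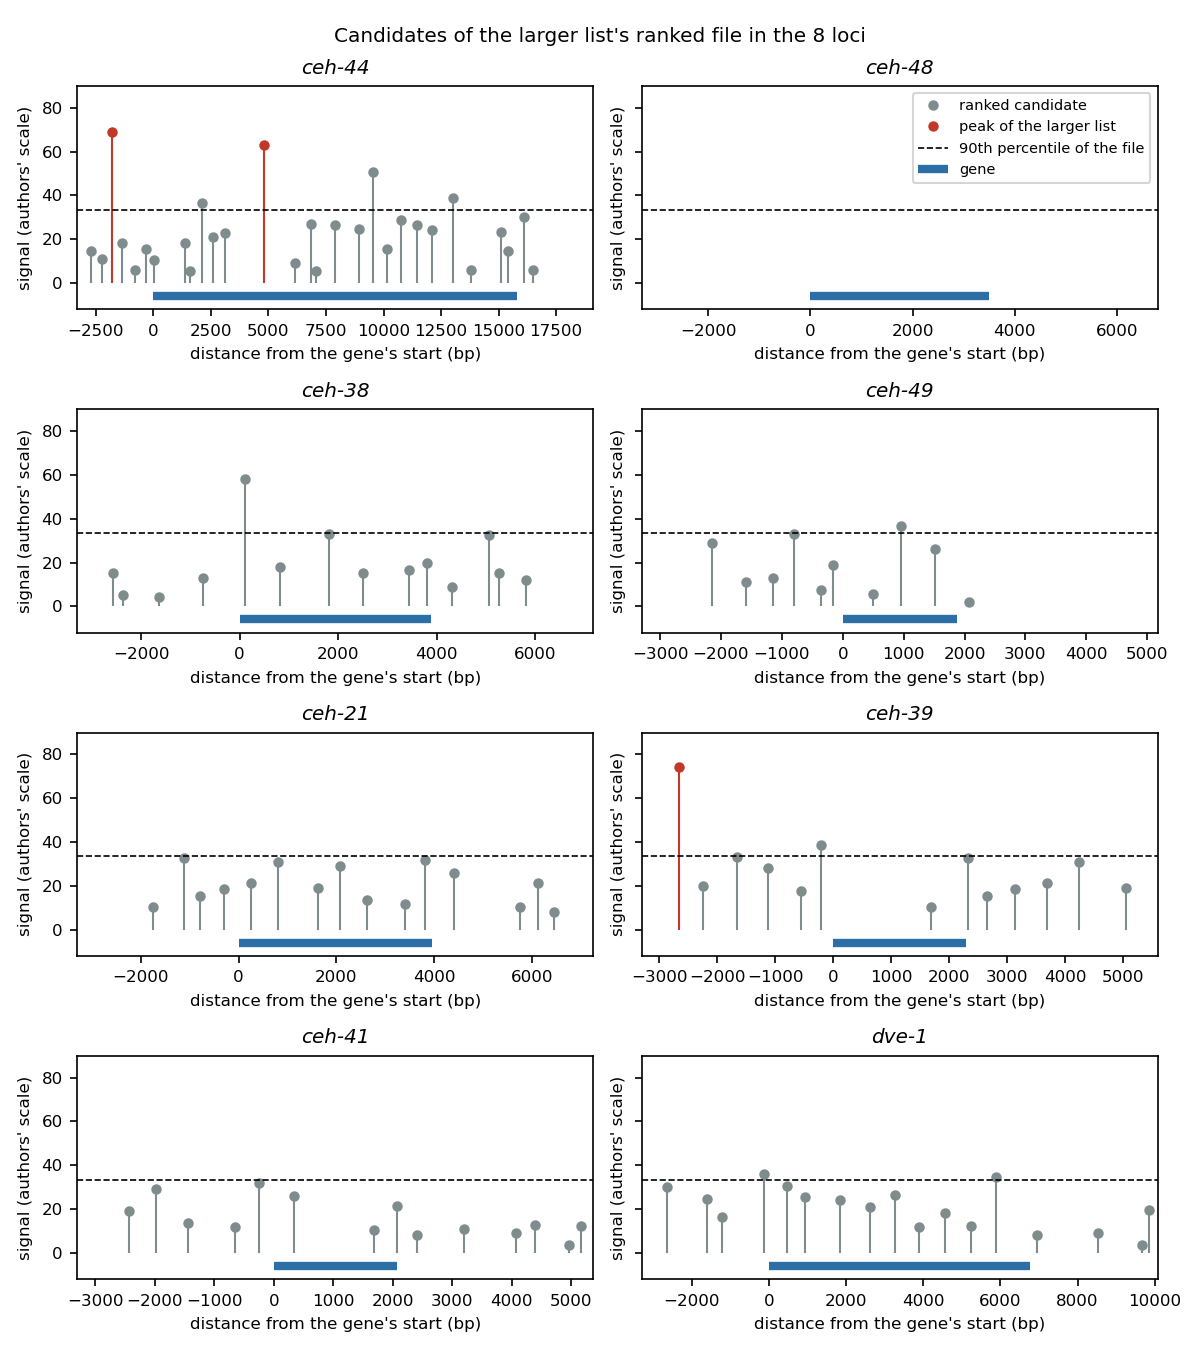
Signal of every candidate in the larger list's ranked file (vertical, authors' scale) against distance in bp from the start of each of the 8 genes, with the gene as a blue bar. Red points are the 3 peaks of the larger list, 2 at ceh-44 and 1 at ceh-39, the dashed line is the file's 90th percentile, and the ceh-48 panel is empty.

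ceh-38, a broadly expressed ONECUT gene, held the site closest to the threshold without passing it. The candidate at chrII:6951496-6951751 had a signal of 58.3 (percentile 99.1) and a −log10 IDR of 1.91, or 1.98 in the conservative list's ranked file. Its summit was 98 bp into the gene by the most upstream annotated start and 3 bp upstream of the start of another ceh-38 transcript. The same summit was 324 bp upstream of the start of malt-1, the neighbouring gene that reads the other way, so the site lies in the promoter window of both genes. It reached percentile 94.7 in replicate 1 with a signal of 22.8 and 98.2 in replicate 2 with 34.5. By signal alone it exceeded 116 of the 1027 peaks of the larger list (11.3%). Of the 1094 candidates in the ranked file with at least its signal, 911 (83.3%) were in that list. Within 1000 bp upstream or 200 bp downstream of the start, ceh-38, ceh-39 and dve-1 had a candidate above percentile 90 of the file. These reached percentiles 99.1, 94.7 and 92.9, and the ceh-38 one is this site shared with malt-1. The strongest candidate of ceh-38 exceeded that of 89.9% of protein-coding loci. Replicate 1 alone ranked a further candidate above its own 90th percentile, 1727 bp from the ceh-38 start, with a signal of 21.5.

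dve-1 had 2 candidates just above the percentile and no peak. The one 126 bp upstream of its start, inside the noncoding gene ZK1193.8, had a signal of 36.2 (percentile 92.9), with percentiles 82.9 in replicate 1 and 71.1 in replicate 2. The one in a late exon, 5873 bp from the start, had 34.6 (percentile 91.4), with percentiles 39.2 and 91.9. An ATCGAT lay within 50 bp of the latter. Each replicate also had a candidate of its own above its percentile that the series file did not rank so high, 891 bp from the start in replicate 1 (signal 21.6) and 4557 bp from it in replicate 2 (signal 27.3).

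ceh-49 had 1 candidate above the percentile, in exon 3 of 4, with a signal of 36.9 (percentile 93.5). It was below the 90th percentile in both replicates, at 82.1 and 85.6. Between 1000 bp upstream and 200 bp downstream of its start, the strongest candidate had a signal of 33.2, percentile 89.6. It lay at -802 bp from the start, inside the neighbouring gene ttn-1. The candidate nearest the start, at -157 bp, had a signal of 19.0 (percentile 51.7).

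ceh-21 and ceh-41 are neighbours of ceh-39 on the X chromosome, and the 3 windows overlap, so they share candidates. Neither gene reached the percentile in the series file. The strongest candidate of ceh-21 was 1113 bp upstream of its start with a signal of 32.8 (percentile 89.2), and 36.3% of protein-coding loci had a weaker strongest candidate. Its summit lay on the outermost base of T26C11.9, a protein-coding gene between ceh-21 and ceh-39. The strongest candidate of ceh-41 was 246 bp upstream of its start with a signal of 32.0 (percentile 88.0), which exceeded that of 32.9% of loci. Its summit lay inside ceh-21, in the last exon, 3815 bp from the ceh-21 start. In replicate 2 a candidate 718 bp upstream of ceh-21, 2718 bp from the ceh-39 start and inside T26C11.9, had a signal of 24.6 (percentile 91.8). Replicate 1 had no candidate of that percentile at ceh-21 or ceh-41.

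**Figure D2:**
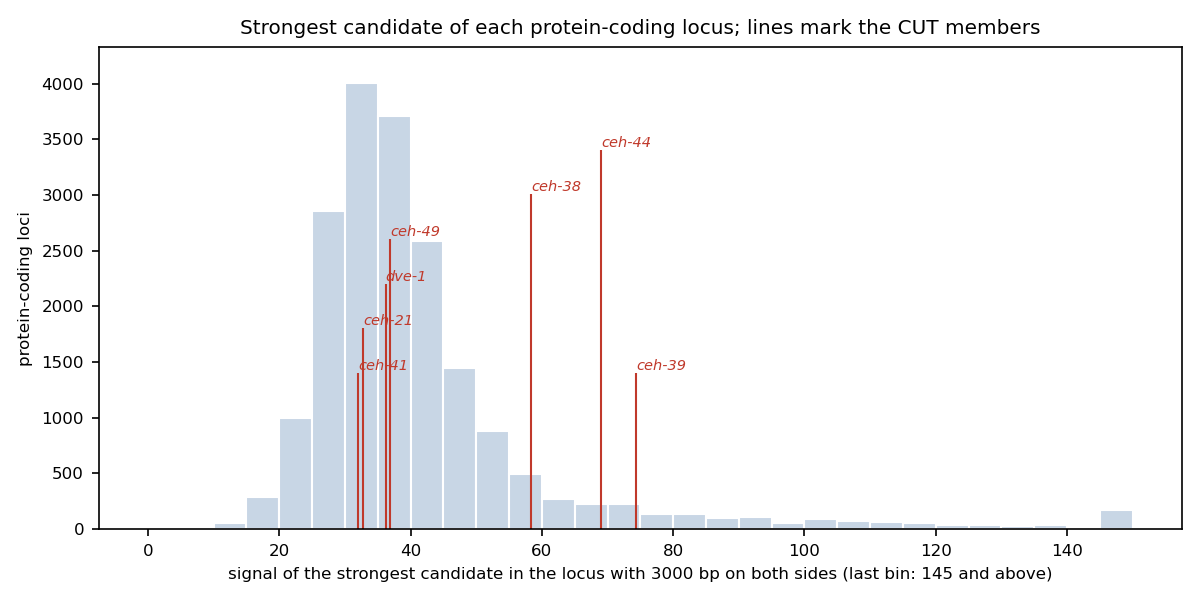
Number of protein-coding loci (vertical) by the signal of the strongest candidate in the locus with its flanks (horizontal, authors' scale, bins of 5), with a red line at each of the 7 members that have a candidate. ceh-41, ceh-21, dve-1 and ceh-49 lie between 32.0 and 36.9, near the median locus at 36.7, while ceh-38, ceh-44 and ceh-39 lie at 58.3, 69.0 and 74.3, beside a 90th percentile of loci of 59.1.

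ceh-48, a neuronal ONECUT gene, had no candidate of any strength in the ranked files of the larger list, of the conservative list and of replicate 2. Over all protein-coding loci, 3.83% had no candidate in the ranked file of the larger list. The nearest entries stood 5230 bp upstream of the gene, with a signal of 26.3, and 27056 bp downstream, with 15.5. The stretch between them, chrIV:6806879-6842662, was 35784 bp long, the 18th longest of the 115551 gaps between candidates in that file, where the median gap was 407 bp. It holds 7 protein-coding genes whole, so the blank is wider than ceh-48. In the conservative file it was 32476 bp and in replicate 2 it was 17180 bp. Replicate 1 did list 6 candidates in the ceh-48 locus, with signals from 3.69 to 18.8 and percentiles from 3.88 to 87.1. A ranked file lists only what the caller proposed, so a blank stretch gives no level for ceh-48.

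The replicates ranked the 11 sites unevenly. Of them, 5 reached the 90th percentile in both replicates, which were the 2 ceh-44 peaks, intron 2 of ceh-44, the ceh-38 start and the tRNA-Glu gene near ceh-39. Another 4 reached it in replicate 2 alone, 0 in replicate 1 alone and 2 in neither. Over all 11556 candidates at or above the 90th percentile of the ranked file, 15.5% overlapped such a candidate in both replicates, 21.3% in replicate 1 alone, 28.1% in replicate 2 alone and 35.0% in neither. Replicate 1's own ranked file put 7 of 58 candidates in the loci above its percentile (12.1%, exact 95% interval 4.99 to 23.3), and replicate 2's put 11 of 54 (20.4%, 10.6 to 33.5). The first interval holds the share that the percentile sets for the whole file and the second lies just above it, with counting error alone considered. Both intervals take candidates as independent, although many are neighbours in one locus. In replicate 2, ceh-44 alone held 5 of the 11, so the second interval is not read as a result about the family. Of the 3 peaks of the larger list, 0 were in both replicates' own lists, while over the whole list 259 of 1027 (25.2%) were in both and 400 (38.9%) in neither.

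**Figure D3:**
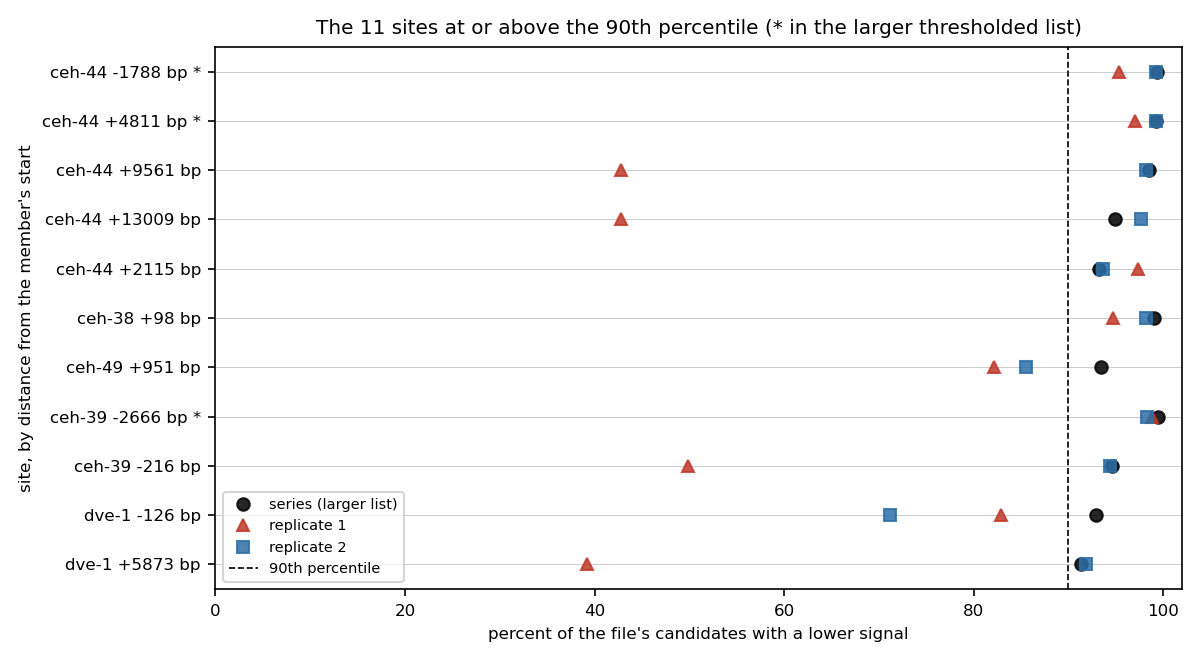
Percent of each file's candidates with a lower signal (horizontal) for the 11 sites at or above the 90th percentile of the larger list's ranked file, in the series file (circles), replicate 1 (triangles) and replicate 2 (squares); asterisks mark peaks of the larger list. In 5 sites all 3 symbols lie right of the dashed line at the 90th percentile, and in 4 sites replicate 1 falls at 49.8 or lower while replicate 2 stays at 91.9 or higher.

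By position, 4 of the 11 sites lay in a promoter, 3 in an exon, 3 in an intron and 1 in none of these, at the tRNA gene. A promoter was at most 1000 bp before or 200 bp after a protein-coding start. Over the 1027 peaks of the larger list, a stricter set, the shares were 43.2%, 3.51%, 27.8% and 25.4%. With 11 sites no difference from these shares is read. Within 50 bp of the summit, counting both strands, ATCGAT occurred at 3 of the 11 sites, which were introns 2 and 3 of ceh-44 and the late exon of dve-1. It occurred at 1 of the 85 weaker candidates in the loci, at 3.45% of all candidates in the ranked file and at 3.21% of the peaks of the larger list. ATCAAT, another known core word, and ATTAAT occurred at 0 of the 11 sites, beside 9.33% and 4.11% of all candidates and 4.77% and 2.34% of the peaks. These are matches of letters in a short window, and 11 windows are too few to compare with the shares over the file.

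The family can be set beside the other homeobox genes named ceh. Of 57 such genes, 2 had a peak of the larger list in the locus (3.51%), ceh-2 and ceh-12. At ceh-12 the strongest candidate had a signal of 74.5, close to the 74.3 near ceh-39, and at ceh-2 it had 58.4, close to the 58.3 at ceh-38. At least 1 candidate at the 90th percentile stood in 31 of the 57 loci (54.4%).

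Genes with a peak resembling the one in intron 3 of ceh-44 were sought as those with exactly 1 summit of the larger list in the locus, in an intron, with the nearest signal to it on the log2 scale. ceh-44 itself does not meet the first condition, since its locus holds 2 summits, so the likeness is to that one peak and not to the locus. Of 347 such genes, the closest were F43C9.2 with 63.1, T14B4.8 and tsp-10 with 62.8 from the same peak, and nhr-41, a nuclear hormone receptor gene, with 63.7. The intron could belong to another gene in the locus, and the peak shared by T14B4.8 and tsp-10 lay in an intron of T14B4.8. At each of these closest genes the summit lay inside a tRNA gene and neither replicate's own list held the peak. The intron 3 peak of ceh-44 differed in both respects, being 176287 bp from the nearest tRNA, snoRNA or snRNA gene and present in replicate 2's own list. Neither trait sets it apart from the list. Only 19.0% of larger-list summits lay inside tRNA genes. Of its peaks, 25.2% were in both replicates' own lists and 24.8% in replicate 2's alone.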

How the data were processed

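Chromatin immunoprecipitation and sequencing of tagged CEH-44 was done by the authors in 2 replicates of 1 group. Peaks lie on ce11, per the labels. The deposited files give a signal for each peak, on a scale that is not stated, and the deposited ranked files also give the −log10 of the global IDR. A control library was among the inputs of the thresholded lists, per the file headers deposited with them, and was not analysed here. Nothing in the sources used here names the aligner, the caller or the depth, so precision per site is unknown. Some ranked candidates with an IDR of 0.01 or less are not in the thresholded lists (1109 against 1027 for the larger list), for reasons not given.

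Here, entries overlapping a locus by at least 1 bp were collected with pandas 2.3.3 in Python 3.11.15, using Ensembl release 115 genes, where the ceh-44 locus is named cone-1 and was matched through the RefSeq locus tag. tRNA genes and sequences came from RefSeq. The overlap code was checked on simulated intervals. With 1 group there was no test. All 8 members were named, with the genes at their peaks or strongest candidates, other ceh genes with a peak and the 4 genes nearest ceh-44 in signal. Members and lists were chosen with earlier results of these data known.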

Additional observations from a re-analysis of the deposited data

How the results depend on the processing

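The 3 peaks in the loci and the 2 members that hold them were the same in number with 5000 bp flanks, with the summit required inside the locus, in the conservative list and with the RefSeq span of ceh-44. With no flank or 1000 bp flanks they became 1 peak and 1 member, since the rbc-2 and tRNA-Glu peaks lie outside. Leaving out a replicate, by using the other's own list, gave 0 to 1 peaks and 0 to 1 members. Those lists are separate calls and shorter, with 387 peaks in replicate 1 and 525 in replicate 2 against 1027. Among peaks at or above the median signal of the larger list there were 0 peaks and 0 members. Without tRNA gene summits, a choice made after seeing the data as was the RefSeq span, 2 peaks and 1 member were left.

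The 11 candidates at the 90th percentile (11.5% of those in the loci) became 25 (26.0%) at the 80th, 5 (5.21%) at the 95th and 4 (4.17%) at the 99th, where the file's share changes by construction. With one replicate left out they ranged from 7 to 11, and the percentage from 12.1 to 20.4. The flanks, merging, the conservative file and the RefSeq span gave 8 to 11 candidates. The signal of the ceh-44 intron 3 peak was 63.2 in the conservative list too and 46.0 in replicate 2's own list, on that file's scale. Replicate 1's own list gave no value. No paired analysis was possible because there is 1 group and no test. Read depth is unknown, so a missing candidate cannot be told apart from one below detection.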
